A study of Mus musculus with 3 samples.

Results

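The genes described here are known from the epicardium, the outer layer of the heart, and from the mesothelium. The mesothelium is the sheet of cells that lines the body cavities. These genes are followed in 3 samples from a cardiac stem cell culture. They were chosen by name: Wt1, Tbx18, Tcf21, Aldh1a2, Msln, Lrrn4 and Upk3b. All 7 were listed in the tables of 2 samples, while the mESC table listed 5 and gave no row for Tcf21 or Upk3b, so these have no value in mESC. The tables listed 22439, 23371 and 24229 genes in mESC, CPCC and CB.

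The cells were male F1 mouse cells from a C57BL/6J mother and a CAST/EiJ father, with no treatment and no engineered allele named in the labels. They were profiled as mouse embryonic stem cells (mESC, 215 cells) and as cells of the mixed cardiac precursor cultures made from them (CPCC, 175 cells). The other sample held cells of rhythmically beating cardiac bodies (CB, 232 cells). By the study's methods, CPCC and CB were both grown from aggregates of the stem cells, and CB did not pass through CPCC. The study grew clones from several blastocysts, and a triplicate is named in the mESC label, but the tables show only sequencing pools, 3 for mESC, 2 for CPCC and 3 for CB. Which clone or culture a pool holds is not given, so each group counts as 1 sample, no difference between samples has a replicate check, and pool values are printed to show the spread.

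As background, the epicardium forms from the proepicardium, a mesothelial outgrowth that spreads over the heart. Some of its cells undergo an epithelial to mesenchymal transition, enter the muscle wall and give rise to fibroblasts and to smooth muscle and pericytes of the coronary vessels. The zinc finger factor Wt1, the T-box factor Tbx18 and the basic helix-loop-helix factor Tcf21 are markers of this lineage, Tcf21 being tied to its fibroblast branch. Aldh1a2 makes retinoic acid, a signal that the epicardium sends to the muscle. Msln, Lrrn4 and Upk3b code for surface proteins of mesothelial cells, and none of the genes is exclusive to the tissue: Wt1 and Tcf21 act in kidney and gonad, and Msln is also made by other epithelia.

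Promoter windows of 250 bases before and 50 after the annotated start were matched by symbol for 5 of the 7 genes in a RefSeq table of build GRCm38.p6, with no entry for Wt1 and Msln. The windows of 4 genes are printed because these genes form the pairs that the cells below turn on: Tcf21 and Aldh1a2 were detected together in more CB cells than any other pair, and Lrrn4 and Upk3b met in the CB cells that held most of the 7 genes. The windows lie at chr10:22820094-22820393 (minus strand, Tcf21), chr9:71215539-71215838 (plus strand, Aldh1a2), chr2:132880813-132881112 (minus strand, Lrrn4) and chr5:136038246-136038545 (plus strand, Upk3b). Each is written 5′ to 3′ on the strand of its gene, and capitals mark matches on either strand to any of 5 short motifs, which are spelled out after the sequences.
Tcf21: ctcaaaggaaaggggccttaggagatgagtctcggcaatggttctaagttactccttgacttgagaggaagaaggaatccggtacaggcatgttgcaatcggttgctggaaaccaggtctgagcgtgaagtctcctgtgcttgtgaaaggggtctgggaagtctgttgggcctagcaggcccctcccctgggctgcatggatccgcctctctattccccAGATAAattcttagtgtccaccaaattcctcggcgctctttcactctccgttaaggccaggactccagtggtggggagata
Aldh1a2: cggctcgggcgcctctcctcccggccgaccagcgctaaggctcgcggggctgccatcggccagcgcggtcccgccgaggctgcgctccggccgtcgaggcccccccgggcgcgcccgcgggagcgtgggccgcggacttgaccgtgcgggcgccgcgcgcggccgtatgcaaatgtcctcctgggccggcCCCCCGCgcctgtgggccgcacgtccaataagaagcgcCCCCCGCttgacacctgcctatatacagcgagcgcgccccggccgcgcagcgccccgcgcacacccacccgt
Lrrn4: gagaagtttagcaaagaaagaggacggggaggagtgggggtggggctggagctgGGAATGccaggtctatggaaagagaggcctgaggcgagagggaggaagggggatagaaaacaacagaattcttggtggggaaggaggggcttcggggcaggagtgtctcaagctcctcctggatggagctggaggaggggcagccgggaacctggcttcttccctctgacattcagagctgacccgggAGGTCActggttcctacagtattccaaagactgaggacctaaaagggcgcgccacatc
Upk3b: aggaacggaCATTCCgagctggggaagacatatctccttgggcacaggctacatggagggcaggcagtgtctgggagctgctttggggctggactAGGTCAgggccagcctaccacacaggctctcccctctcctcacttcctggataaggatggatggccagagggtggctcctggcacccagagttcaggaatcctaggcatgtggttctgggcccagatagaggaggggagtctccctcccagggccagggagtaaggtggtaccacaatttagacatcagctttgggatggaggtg

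Lrrn4 and Upk3b each held 1 match to GGAATG, the core letters read by TEAD factors, which 14.7% of the 32851 promoter windows in the table hold. Both also held 1 match to TGACCT, one side of a nuclear receptor element, found in 16.3% of all windows. The window of Tcf21 held 1 match to AGATAA, letters of GATA factor sites, found in 11.2% of all windows. The window of Aldh1a2 held 2 matches to GCGGGGG, part of the sites of zinc finger factors of the EGR kind, which stood once in the window of Tbx18 and in 10.8% of all windows. The T-box letters GGTGTGA, in 3.98% of all windows, were in none of the 5. The E-box letters CANNTG, which are not capitalised, were in 3 of the 5 (Tbx18, Aldh1a2 and Upk3b) and in 72.3% of all windows. The capitalised matches in the printed windows did not overlap each other. These matches describe letters only.

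The median depth per cell was 1528316 counts in mESC, 1437414 in CPCC and 1397869 in CB. Within CB it was 804581 counts in pool 1, 1750784 in pool 2 and 1596814 in pool 3. The shallowest cell had 569 counts in mESC, 8102 in CPCC and 4 in CB. No cell was removed, so nearly empty cells stay in all shares, as cells that hold few or no genes. Too shallow for the thinning used below were 22 mESC, 18 CPCC and 22 CB cells. Levels are counts summed over the cells of a sample or pool and given per 1000000 gene counts (CPM). A cell is said to hold a gene at 1 or more estimated counts. As a check of the labels, Pou5f1, a pluripotency factor, was held by 94.4% of mESC and 55.4% of CPCC cells and was not listed in CB, while the cardiac troponin gene Tnnt2 was held by 11.2%, 21.7% and 14.7% of mESC, CPCC and CB cells. Most CB cells therefore lacked this cardiomyocyte marker, and Col1a2, a fibroblast collagen, was held by 76.3% of CB cells at 1 or more counts. Tnnt2 went against its list, with 84.9 CPM in CPCC and 40.4 CPM in CB. Of 12 cardiomyocyte genes, 10 were at least 2-fold higher in CB than in CPCC, and Tnnt2 was the 1 that was lower. Intervals are 95% limits that cover counting error only, because these reads carry no molecular identifiers.

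Among the transcription factors, Wt1 was the rarest in CB. Wt1 (ENSMUSG00000016458.14, chr2:105126529-105173616, plus strand, GRCm38) reached 0.259, 2.25 and 2.42 CPM in mESC, CPCC and CB. It was held by 3 mESC cells, 28 CPCC cells (16%, interval 10.9 to 22.3%) and 7 CB cells (3.02%, interval 1.22 to 6.12%). CPCC and CB thus had nearly the same summed level from very different numbers of cells.

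The 28 CPCC cells held between 0.809 and 46.5 CPM of Wt1, with a median of 11.2 CPM. The 7 CB cells held between 0.835 and 264 CPM, with a median of 49.3 CPM. The CB level followed few cells: 1 cell gave 37.2% of all Wt1 counts, and the pools had 9.03, 1.73 and 0.188 CPM. The CPCC pools also differed, with 4.17 CPM and 18 cells in pool 1 and 0.456 CPM and 10 cells in pool 2. In mESC the pools had 0.298, 0 and 0.561 CPM. After every cell was thinned to 430000 counts, Wt1 was left in 1.04% of mESC, 14.6% of CPCC and 2.38% of CB cells. No order between CPCC and CB is read from these shares, since the summed level ran the other way.

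Tbx18 and Tcf21 were held by more CB cells than Wt1. Tbx18 (ENSMUSG00000032419.8, chr9:87702800-87731260, minus strand) had summed levels of 1.18, 5.61 and 24.7 CPM in mESC, CPCC and CB, and was held by 2, 16 and 28 cells. In CB its level was 3.50 CPM in pool 1, 12.3 CPM in pool 2 and 45.3 CPM in pool 3, while the shares of cells with the gene, 8.70%, 12.8% and 14.1%, had overlapping counting intervals. CB cells with Tbx18 ranged from 0.755 to 1059.9 CPM around a median of 59.1 CPM, and 1 cell, in pool 3, gave 27.8% of the counts. The CPCC pools had 1.94 and 9.04 CPM, so the lower CB pool lay below the higher CPCC pool. Tbx18 shares exon sequence with D030062O11Rik on the other strand and the use of strand in counting was not stated. That transcript was listed at 0.574 CPM in CB and found in 2 of the 28 cells with Tbx18.

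Tcf21 (ENSMUSG00000045680.8, chr10:22817281-22820174, minus strand) was held by 62 of 232 CB cells (26.7%, interval 21.1 to 32.9%), more than any other of the 7 genes in CB, though in pool 3 Msln was in more cells (37 against 20). It had 0.362 CPM and 4 cells in CPCC and 52.9 CPM in CB. The CB pools had 81.4, 10.9 and 79.1 CPM and the CPCC pools 0.607 and 0.133 CPM, so all CB pools lay above both CPCC pools. The 62 cells ranged from 0.446 to 1190.5 CPM with a median of 101 CPM, and 7 cells together gave 50% or more of the counts. Pool 1, the shallowest, had the highest share of cells with Tcf21, 46.4% against 12.8% in pool 2 and 23.5% in pool 3. The antisense gene Gm10824 overlaps Tcf21 without shared exons and was found in 1 of the 62 cells.

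Aldh1a2 (ENSMUSG00000013584.5, chr9:71215789-71296243, plus strand), the retinaldehyde dehydrogenase that makes retinoic acid, had summed levels of 1.36, 6.28 and 30.5 CPM in mESC, CPCC and CB. It was held by 13, 18 and 34 cells, or 6.05%, 10.3% and 14.7%. The CB pools had 38.4, 0 and 55.0 CPM: the gene was found in 15 of 69 cells of pool 1, in none of the 78 cells of pool 2, which allows a share of up to 3.85% by the limit of 3 cells in the total, and in 19 of 85 cells of pool 3. The depth of pool 2 was the highest of the 3, and its 0 counts correspond to less than 0.0227 CPM, the level of 3 counts. In CPCC, pool 1 had 10.9 CPM and pool 2 1.91 CPM, and 1 cell gave 44.4% of the counts.

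Msln had the highest summed level of the 7 in CB, also per length, a rank that rested on pool 3: Tcf21 exceeded it in pool 1 (81.4 against 64.5 CPM) and in pool 2 (10.9 against 0 CPM). Msln (ENSMUSG00000063011.7, chr17:25748613-25754378, minus strand), which codes for mesothelin, was at 12.9 CPM in the stem cells, 4.18 CPM in the precursors and 111 CPM in the cardiac bodies. Its 69 mESC cells (32.1%) had a median of 27.0 CPM and the 48 CB cells (20.7%) one of 220.1 CPM, with a highest cell of 2168 CPM. The share of cells and the level thus ran in opposite directions between mESC and CB, and no order is read from the shares, which stayed at 31.6% and 20% after thinning. In mESC the pools had 9.28, 9.26 and 21.7 CPM. In CPCC, pool 1 had 8.50 CPM with 24 of 79 cells and pool 2 had 0.147 CPM with 3 of 96 cells. In CB the pools had 64.5, 0 and 232 CPM, with 11, 0 and 37 cells, so that pool 2 again had none. In pool 3, 28 of the 37 cells reached 10 counts, and the rest held the gene at a few counts only.

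Lrrn4, a leucine-rich repeat membrane protein, was, of the 5 genes listed in all 3 samples, the one whose summed level was highest in mESC. Lrrn4 (ENSMUSG00000043110.2, chr2:132868305-132880891, minus strand) was at 3.68, 3.43 and 2.06 CPM in mESC, CPCC and CB, and was held by 41, 28 and 8 cells. In CB a single cell with 221 CPM gave 73.0% of the counts. The mESC pools (6.37, 2.84 and 1.93 CPM), the CPCC pools (3.42 and 3.43 CPM) and the CB pools (8.42, 1.08 and 0.202 CPM) overlapped, and the highest pool was one of CB. The median mESC cell with Lrrn4 had 5.70 CPM, or 8 counts.

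Upk3b (ENSMUSG00000042985.7, chr5:136038496-136046487, plus strand) codes for a uroplakin, a membrane protein of urothelium and mesothelium. It had 0.210 CPM in CPCC, from 6 cells, and 12.9 CPM in CB, from 11 cells (4.74%, interval 2.39 to 8.33%). The CB pools had 38.4, 0 and 13.7 CPM, and no cell of pool 2 held it. One pool 1 cell with 928 CPM gave 48.8% of the counts. The near relative Upk3bl, which lies close by on the same strand, was found in 78 CB cells, 7 of them among the 11 with Upk3b, and the cell with 928 CPM of Upk3b had 0 CPM of Upk3bl.

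**Figure D1:**
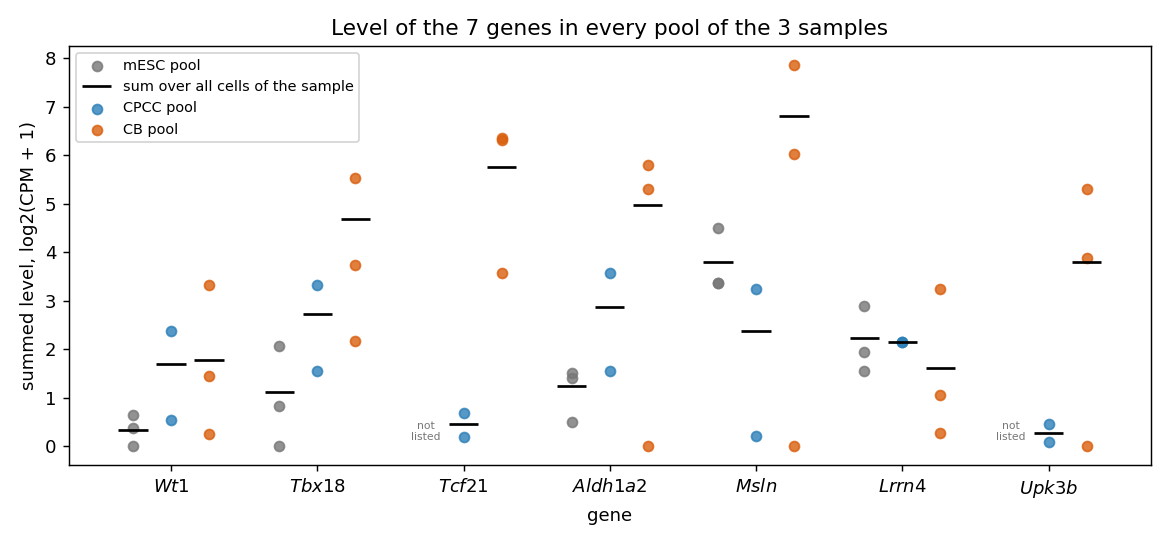
Summed level of each gene, as log2(CPM + 1), with 1 point per sequencing pool and a bar for the sum over all cells of the sample, in mESC, CPCC and CB. For Aldh1a2, Msln and Upk3b 1 CB pool lies at 0 while the other 2 lie above all CPCC pools.

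**Figure D2:**
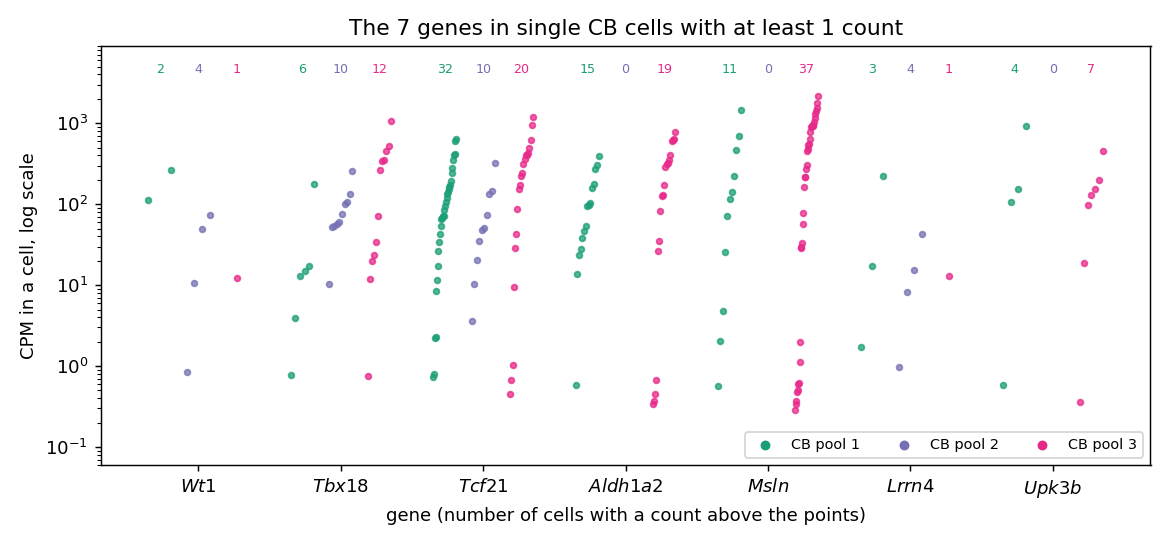
CPM of each gene on a log scale in every CB cell with at least 1 count, coloured by pool, with the number of such cells written above. Tcf21 has the most cells (62), Wt1 and Lrrn4 have 7 and 8, and Aldh1a2, Msln and Upk3b have none in pool 2.

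Divided by exon length, the CB levels were 36.1 CPM per kb for Msln, 22.5 for Tcf21, 13.5 for Aldh1a2, 5.24 for Tbx18, 3.66 for Upk3b, 0.555 for Lrrn4 and 0.391 for Wt1. Neighbours in this order had overlapping pool values and their order is not firm. In mESC the order began with Msln (4.22 CPM per kb) and Lrrn4 (0.991), and in CPCC with Aldh1a2 (2.77) and Msln (1.37).

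Differences between samples were counted at 2-fold of (CPM + 1). Most of the genes were higher in CPCC and CB than in mESC, and in CB than in CPCC. CPCC exceeded mESC in 3 of 5 genes, Wt1 (log2 ratio 1.37), Tbx18 (1.60) and Aldh1a2 (1.63), where 13.4% of all genes listed in both tables did so. Msln was lower in CPCC (log2 ratio -1.43), a call that 6.38% of all genes had, and Lrrn4 lay within 2-fold (-0.08). The median over the 5 was 1.37, against -0.02 over all 20272 genes. None of these 4 calls held when each pool in turn was left out: without CPCC pool 1 the ratio was 0.21 for Wt1 and 0.30 for Aldh1a2, without CPCC pool 2 it was 0.43 for Tbx18 and -0.55 for Msln, and without mESC pool 3 it was -0.99 for Msln. Without the 1 cell per sample with most counts of the 7 genes, the ratio of Aldh1a2 was 0.92.

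CB exceeded mESC in 4 of 5 genes, with log2 ratios of 3.74 for Aldh1a2, 3.56 for Tbx18, 3.0 for Msln and 1.44 for Wt1. Of all genes, 24.9% were at least 2-fold higher and 11.3% at least 2-fold lower in this comparison. Lrrn4 had a ratio of -0.61 and was within 2-fold. The median was 3.0, against 0.13 over all 19855 genes. The call for Msln rested on CB pool 3, without which its ratio was 0.64, and the call for Wt1 rested on CB pool 1, without which it was 0.61.

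CB exceeded CPCC in 5 of 7 genes, where 17.0% of all genes were at least 2-fold higher and 7.54% at least 2-fold lower. The log2 ratios were 5.31 for Tcf21, 4.43 for Msln, 3.53 for Upk3b, 2.11 for Aldh1a2 and 1.96 for Tbx18. Wt1 (0.07) and Lrrn4 (-0.53) were within 2-fold. The median was 2.11, against 0.14 over all 20995 genes. Without CB pool 3 the ratio fell below 2-fold for Tbx18 (0.67) and for Aldh1a2 (0.87). The 3 comparisons share samples and are not independent of one another.

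Of 21 other mesothelial genes, 20 were listed in both CB and CPCC. Of these, 11 were at least 2-fold higher in CB, 9 were within 2-fold and 0 were lower, with a median log2 ratio of 1.25, where 17.0% of all genes were higher. Lists of other cell types went both ways, with 9 of 10 fibroblast genes (median 4.04), 10 of 12 cardiomyocyte genes (2.57) and 7 of 10 endothelial genes (2.27) at least 2-fold higher, and 5 of 10 epithelial genes (0.83) and 4 of 6 endoderm genes (3.46) as well. Of the smooth muscle genes, 2 of 6 were higher and 4 lower (-1.32), all 7 blood and macrophage genes were lower (-3.95), and of 7 pluripotency genes 1 was higher and 5 were lower (-5.41). Upk1b had 659 CPM in CB against 2.29 CPM in CPCC, and Upk3bl had 419 CPM against 0.696 CPM. Bnc1, a zinc finger factor of mesothelium and other epithelia, stayed low with 3.96 CPM in CB, from 11 cells. The long noncoding Wt1os, which lies next to Wt1, was found in 1 CB cell, and the mesothelial markers Calb2 and Slpi in 2 and 5 cells.

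Of the 15 further genes of the retinoic acid pathway listed in both tables, 10 were at least 2-fold higher in CB than in CPCC and 5 were within 2-fold (median 1.46), to be read against the same 17.0% of all genes. The receptor Rarb had 63.6 CPM in CB against 1.22 CPM in CPCC, the carrier Rbp4 had 246 CPM against 0.946 CPM and the enzyme Aldh1a1 had 58.7 CPM against 7.0 CPM. Aldh1a3 ran the other way, with 16.8, 11.7 and 7.45 CPM in mESC, CPCC and CB. Of 12 genes of the mesenchymal transition, 8 were at least 2-fold higher in CB than in CPCC and 4 within 2-fold (median 2.03). Of the 9 listed kidney and gonad genes, 4 were higher and 5 within 2-fold. Both counts stand beside the same 17.0% of all genes. The kidney factors Pax2 and Pax8 had 0.0591 and 0.121 CPM in CB, and Amh was not listed in any table.

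The cells that held the genes in CB fell apart by an epithelial and a fibroblast gene. At 10 or more counts, all 26 cells with Aldh1a2 held Col1a2, and 1 of them also held Epcam, an epithelial adhesion molecule. Of 51 cells with Tcf21, 43 (84.3%) held Col1a2 without Epcam, 7 held both and 1 held Epcam alone. Of 24 cells with Tbx18, 18 (75%) held Col1a2 without Epcam and 3 held both. Of 36 cells with Msln, 24 (66.7%, interval 49.0 to 81.4%) held Epcam without Col1a2, 10 held both and 2 held Col1a2 alone. Among all 232 CB cells, 46.6% held Col1a2 alone, 23.3% Epcam alone, 9.48% both and 20.7% neither. Upk3b and Lrrn4 were found on both sides, with 4 of 9 and 3 of 6 cells that held Epcam alone.

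**Figure D3:**
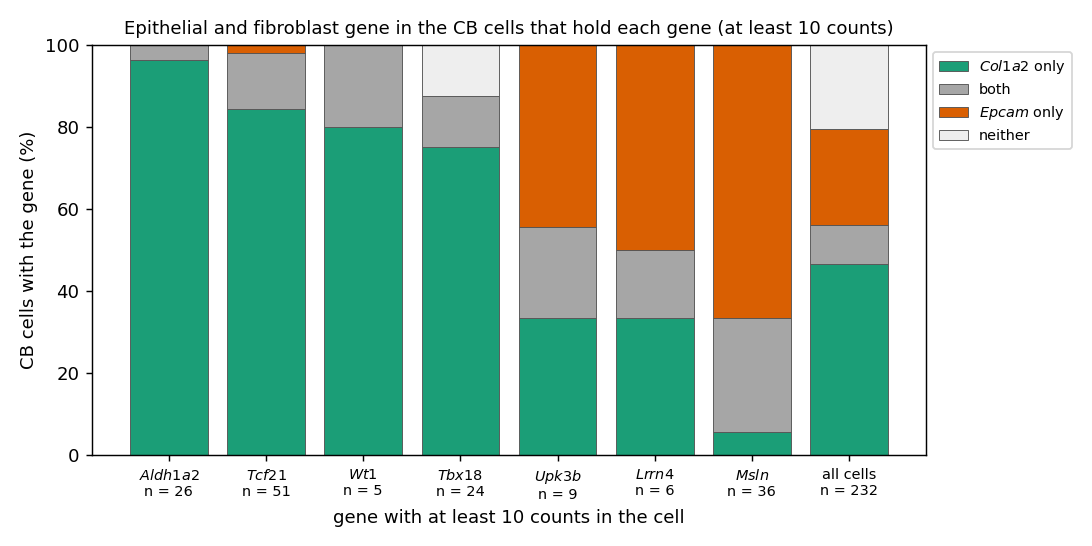
Share of CB cells with at least 10 counts of each gene that also held at least 10 counts of Col1a2 only, Epcam only, both or neither, with all 232 CB cells at the right. Aldh1a2 cells are 96.2% Col1a2 only, and Msln cells are 66.7% Epcam only.

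Within the pools the division of Msln was clearest in pool 3, where all 28 cells with Msln held Epcam and Upk1b, against 8.77% of the other 57 cells for either gene. In pool 1, 6 of 8 held Epcam and 7 of 8 held Upk1b. Pool 2, which had no cell with Msln and none with 10 counts of Upk1b, still had Epcam in 27 of its 78 cells, so cells with an epithelial gene were present there. Over all pools, Krt19 (94.4%), Krt7 (97.2%), Wfdc2 (94.4%) and Cldn4 (91.7%) accompanied Msln, against 17.9%, 13.3%, 33.7% and 15.8% of the other cells, and Col1a2 was in 33.3% of Msln cells. The median Msln cell held 9 of the 10 genes of the epithelial list at 10 counts, against 0 in the other cells, and the summed level of that list ranged from 16.1 to 24225 CPM around a median of 10472 CPM, against a median of 8.76 CPM. The list of other mesothelial genes, which shares Krt8, Krt18 and Krt19 with the epithelial list, was also higher in Msln cells. Its median was 8.5 genes held and 8897 CPM, against 2 genes and 340.3 CPM in the other cells. Of its members, Upk3bl was in 91.7% of Msln cells and Muc16 in 44.4%, against 7.65% and 0.510% of the others, while Bnc1 and Gpm6a were each in 1 of the 36 (2.78%), against 4.08% and 8.16%. Wt1 was in 1 of the 36 as well, against 2.04% of the other cells. By these markers, Msln in CB sat in cells that held epithelial genes, and it is reported here as a gene and not as a mark of epicardium.

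Cells with Tcf21 and Aldh1a2 held a fibroblast set. The median cell with either gene held 8 of the 10 fibroblast genes at 10 counts, against 1 and 2 in the cells without. Col3a1 was in 98.0% of Tcf21 cells and in all 26 Aldh1a2 cells, against 39.2% and 46.1% of the cells without the respective gene. Nkain4, from the list of other mesothelial genes, was in 64.7% and 61.5% of them, against 15.5% and 21.8%. That list as a whole was not higher: the median cell held 3 of its 21 genes with or without Tcf21, at 450.0 against 535 CPM, and 2.5 against 3 with and without Aldh1a2, at 362 against 547 CPM. Upk1b was in 13.7% and 15.4% of them, against 23.2% and 21.8%, where the cells without include pool 2, in which no cell held it. In pools 1 and 3 it was in 18.5% and 11.8% of Tcf21 cells, against 26.2% and 45.6%. For Aldh1a2 the shares were 16.7% and 14.3%, against 24.6% and 43.7%. Within pools, Nkain4 was in 77.8%, 42.9% and 52.9% of Tcf21 cells in pools 1, 2 and 3, and in 21.4%, 12.7% and 14.7% of the others. Tbx18 cells held a median of 7.5 of the 10 fibroblast genes, against 2 in the others. The median level of that list was 7604 CPM in Tbx18 cells and 842 CPM in the others. In Tcf21 and Aldh1a2 cells it was 17686 and 27379.9 CPM. The median cell with any of the 3 genes held 7 of the 12 genes of the mesenchymal transition, against 3 or 4 in the cells without. This list shares Pdgfra and Postn with the fibroblast list. In Tbx18 cells, Snai1 was in 79.2%, Twist1 in 83.3%, the receptor Pdgfrb in 75% and Snai2 in 25%, against 27.4%, 33.7%, 35.6% and 20.7% of other cells. Krt19 was in 1 of the 24 Tbx18 cells. Cells with Tbx18 and Aldh1a2 were deeper, with medians of 1853641 and 1712170.4 counts against 1362410.1 and 1349529 in the cells without. Tcf21 cells were not (1325057 against 1415056). The part of depth in these shares was not tested.

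The 5 cells with 10 or more counts of Wt1 all held Bnc1, which only 4 of the other 227 CB cells held (1.76%). These 5 were deeper, with a median of 2223528 counts against 1380683 in the others, and the part of depth in the shares was not tested. All 5 also held Krt8, Podxl and Col1a2, against 39.2%, 29.5% and 55.1% of the others, and 4 held Gpm6a, a membrane protein made by mesothelium, against 5.73% of the others. The median Wt1 cell held 11 of the 21 other mesothelial genes and 8 of the 10 fibroblast genes, against 3 of each. Of the mesothelial list, Upk3bl, Muc16, Dmkn, Scx and Calb2 were in none of the 5, against 21.1%, 7.49%, 3.96%, 6.61% and 0.441% of the others. Of the kidney and gonad list, which holds Podxl, the median was 2 genes with and without Wt1. Of the 5, 4 held Tnnt2, against 25 of the 227 others, and the cardiomyocyte list summed to between 1.30 and 981 CPM in them. The median cell held 3 of the 12 genes of that list: Tnni1 was also in 4 of the 5, Myl4 in 2 and Actn2, Myl7 and Ttn in 1 each, and Myh6, Myh7, Tnni3, Nppa, Pln and Ryr2 were in none of the 5. Of the 10 endothelial genes, Pecam1, Cdh5, Tie1, Plvap and Emcn were in none, Kdr, Egfl7, Esam and Tek were in 1 each and Ramp2 was in 2, and the summed level of that list had a median of 103 CPM, against 20.6 CPM in the others. The Bnc1 cells with Wt1 came from all 3 pools, 2 in pool 1, 2 in pool 2 and 1 in pool 3. All 9 cells with Upk3b held Upk1b and Krt8, against 17.9% and 38.1% of the others, and 4 of them held Bnc1 and 4 Gpm6a, against 2.24% and 5.83%. The 9 Upk3b cells were of more than 1 kind: 4 held Epcam alone, 2 held both Epcam and Col1a2, and 3 held Col1a2 alone. The last 3 are the cells described below that held most of the 7 genes. The median Upk3b cell held 9 of the 10 epithelial genes, at 10217 CPM (44.8 to 23977 CPM), against 1 gene and 40.8 CPM in the others. It held 6 of the 10 fibroblast genes, against 3. Pool 2 had no Upk3b cell. The others of pools 1 and 3 had 7.54 CPM of the epithelial list. Of the fibroblast list they had 9068 CPM, against 2259 CPM with Upk3b. Upk3b, too, is reported as a gene and not as a mark of epicardium.

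How often the genes met in 1 cell was counted next. Of the 232 CB cells, 100 held none of the 7, 89 held 1, 28 held 2, 12 held 3, 1 held 5 and 2 held 6. No CB cell held all 7. In CPCC, 86 of 175 cells held none, 9 held 3 and 1 held 4, and in mESC, where 5 genes were listed, 115 of 215 cells held none and 2 held 3. CB thus had 15 cells with 3 or more (6.47%, interval 3.66 to 10.4%), CPCC 10 (5.71%, interval 2.77 to 10.3%) and mESC 2 (0.930%, interval 0.113 to 3.32%). The 15 CB cells were deep, with a median of 2178703 counts against 1367835 in the other CB cells, and 12 of 210 cells held 3 or more after thinning to equal depth. They came from pool 1 (6 cells), pool 2 (1 cell) and pool 3 (8 cells). At 10 or more counts of each gene, 7 CB cells and 4 CPCC cells still held 3 or more.

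The pair that met most often was Tcf21 and Aldh1a2. Of the 34 CB cells with Aldh1a2, 20 held Tcf21 (58.8%, interval 40.7 to 75.4%), against 42 of 198 cells without Aldh1a2 (21.2%, interval 15.7 to 27.6%). Within pool 1 it was 13 of 15 cells against 35.2% of the rest, and within pool 3 it was 7 of 19 (36.8%) against 19.7%. At 10 or more counts of both genes, 10 of 12 Aldh1a2 cells in pool 1 held Tcf21 (83.3%, against 29.8% of the rest), but in pool 3 it was 3 of 14 (21.4%) against 19.7%. The excess was thus seen in pool 1 at both levels, and in pool 3 not at 10 counts.

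Tbx18 met Tcf21 in 12 of its 28 cells (42.9%, interval 24.5 to 62.8%), against 24.5% of the cells without Tbx18, and Aldh1a2 in 8 (28.6%, interval 13.2 to 48.7%), against 12.7%. For Tcf21 the pools differed: all 6 cells with Tbx18 in pool 1 held Tcf21, 1 of 10 did in pool 2 and 5 of 12 did in pool 3. Of the cells without Tbx18, 41.3%, 13.2% and 20.5% did. Only 3 of the 6 cells in pool 1 reached 10 counts of Tbx18.

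Of the 48 CB cells with Msln, 8 held Tcf21 (16.7%, interval 7.48 to 30.2%), against 29.3% of cells without Msln (interval 22.9 to 36.5%), and 4 held Aldh1a2 (8.33%, interval 2.32 to 20%), against 16.3% (interval 11.3 to 22.5%). The intervals overlapped for both. Tbx18 was in 5 (10.4%), Wt1 in 1 (2.08%) and Lrrn4 in 1 (2.08%), against 12.5%, 3.26% and 3.80%. Within pool 1 the shares with Tcf21 with and without Msln were 36.4% and 48.3%, and within pool 3 they were 10.8% and 33.3%. At 10 or more counts of both genes, 4 of 36 Msln cells held Tcf21 (11.1%, against 24.0%) and 2 held Aldh1a2 (5.56%, against 12.2%). Msln met Upk3b in 6 cells: of 11 cells with Upk3b, 6 held Msln (54.5%, interval 23.4 to 83.3%), against 19.0% of the other cells. Those were 1 of 4 cells in pool 1 and 5 of 7 cells in pool 3, where 41.0% of the other cells held Msln too.

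Wt1 and Lrrn4, both rare in CB, met in 4 cells. That is 4 of 7 cells with Wt1 (57.1%, interval 18.4 to 90.1%) against 4 of 225 cells without it (1.78%, interval 0.486 to 4.49%). At 10 or more counts of both, 2 of 5 cells with Wt1 held Lrrn4, against 1.76% of the others. Cells with 10 or more counts of Lrrn4 were deeper, with a median of 2149021 counts against 1364505 in the cells without. Wt1 met Upk3b in 3 cells and Lrrn4 met Upk3b in 4.

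**Figure D4:**
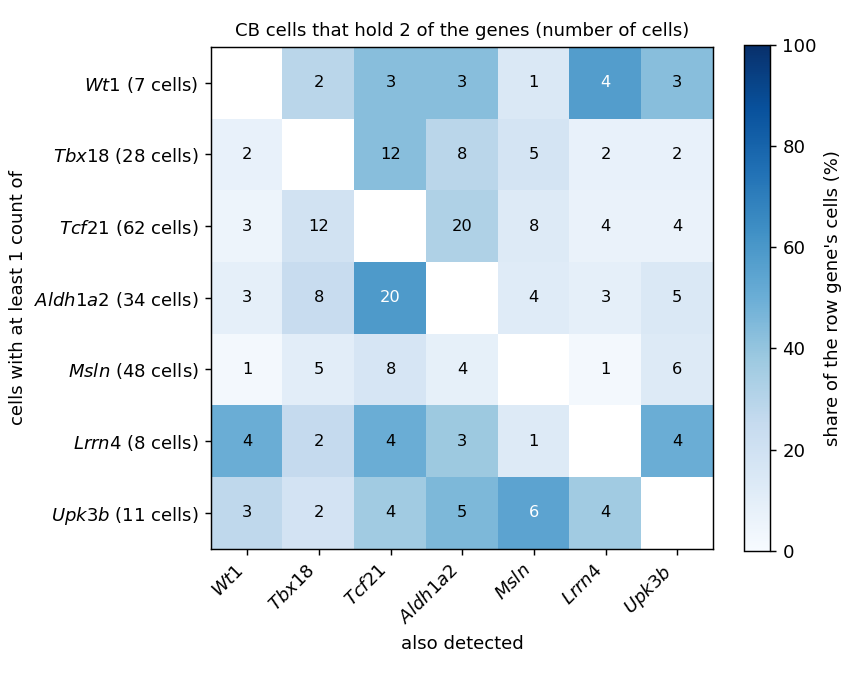
Number of CB cells in which the row gene and the column gene each had at least 1 count, shaded by the share of the row gene's cells. Aldh1a2 with Tcf21 has the most cells (20), and Wt1 with Lrrn4 has 4 of 7 cells.

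Most of the meeting of rare genes came down to 3 cells that held 5 or more of the 7. All 3 held Wt1, Tcf21, Aldh1a2, Lrrn4 and Upk3b. The deeper pool 1 cell (2297982 counts) held Wt1 at 112 CPM, Tcf21 at 107, Aldh1a2 at 268, Msln at 72.2, Lrrn4 at 221 and Upk3b at 928 CPM. The other pool 1 cell (1154391 counts) held Wt1 at 264 CPM, Tcf21 at 84.9, Aldh1a2 at 98.8, Upk3b at 152 and Lrrn4 at 1.73 CPM. The pool 3 cell (2223528 counts) held Tbx18 at 525 CPM, Aldh1a2 at 400.3, Tcf21 at 310.3, Upk3b at 197, Lrrn4 at 13.0 and Wt1 at 12.1 CPM. Msln was thus in 1 of the 3 and Tbx18 in 1.

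The 3 cells resembled each other in genes outside the 7. Upk1b was at 1038, 639 and 822 CPM in the deeper pool 1 cell, the other pool 1 cell and the pool 3 cell, and Gpm6a at 824, 384 and 1729 CPM. Bnc1 was at 115, 86.6 and 49.0 CPM and Rspo1, a Wnt pathway ligand, at 107, 90.1 and 176 CPM. Epcam and Upk3bl were at 0 CPM in all 3. Col1a2 was at 2686, 5196 and 7764 CPM and Tnnt2 at 133, 200.1 and 600.4 CPM, so these cells held mesothelial and fibroblast genes and Tnnt2, a troponin of heart muscle, side by side. In the study, capture sites with more than 1 cell were noted under the microscope. The deposited columns carry no such mark, and whether the 3 libraries hold 1 cell each was not tested.

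The 12 cells with exactly 3 of the genes were of other kinds. In 8 of them Col1a2 was at 452 CPM or more and Epcam at 0.372 CPM or less. In a pool 1 cell (Upk3b 107 CPM), a pool 3 cell (Msln 1027 CPM) and another pool 3 cell (Msln 1152 CPM), Epcam was at 545, 1192 and 1011 CPM. The pool 2 cell with Wt1 at 73.6 CPM and Tbx18 at 101 CPM had Bnc1 at 93.2 and Tnnt2 at 139 CPM, with Col1a2 at only 39.3 CPM, no Tcf21 and no Aldh1a2.

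**Figure D5:**
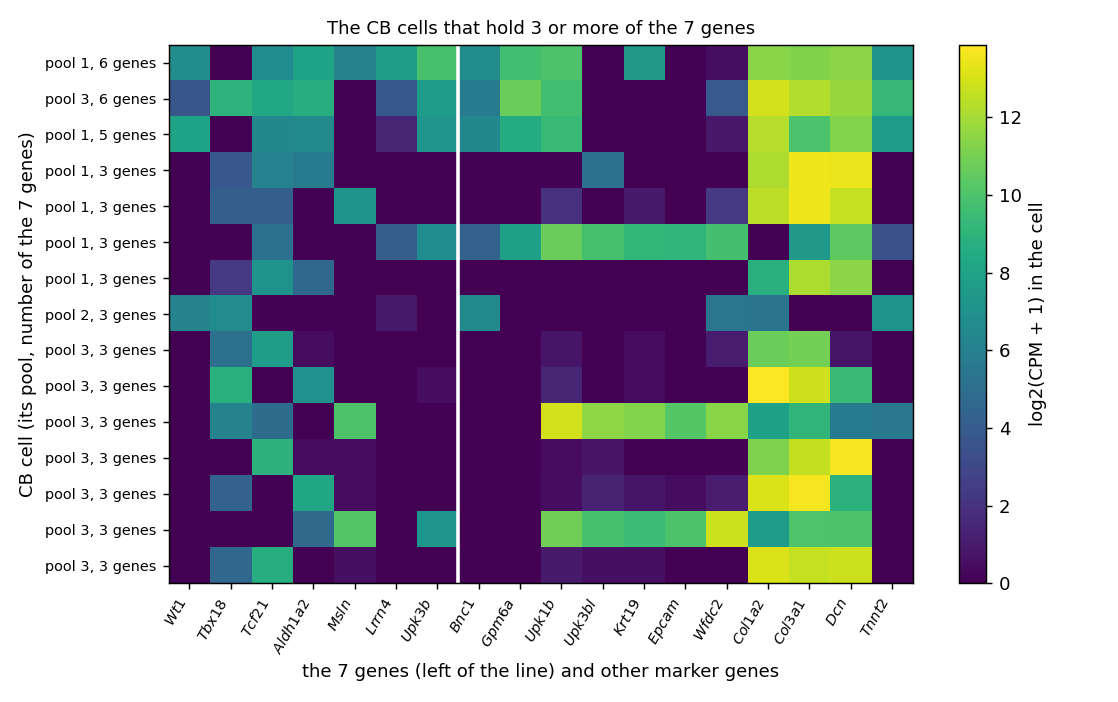
Level, as log2(CPM + 1), of the 7 genes (left of the white line) and of other marker genes in the 15 CB cells that held 3 or more of the 7. The 3 uppermost cells hold Wt1, Tcf21, Aldh1a2, Lrrn4 and Upk3b with Bnc1, Gpm6a and Upk1b, and 3 lower cells hold Epcam, Upk1b and Upk3bl.

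The same counts were made in mESC and CPCC, at 10 or more counts. Of the 52 mESC cells with Msln, 50 (96.2%) held the pluripotency gene Pou5f1, against 88.3% of the other mESC cells. Krt8 was in 1 of the 52 and Col1a2 in none, against 0.613% of the others for either gene. All 19 mESC cells with Lrrn4 held Pou5f1, against 89.3% of the others. These cells were also deeper, with medians of 1902296 counts for Msln and 1912136 for Lrrn4, against 1390453 and 1470223 in the cells without.

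In CPCC the cells with a gene came mostly from 1 of the 2 pools, so the shares were taken within pools. Pool 1 gave 21 of 22 cells with Msln, 11 of 12 with Wt1, 11 of 14 with Lrrn4 and 12 of 16 with Aldh1a2, and pool 2 gave 9 of 13 with Tbx18. Among pool 1 cells, Pou5f1 was in 17 of 21 with Msln (81.0%, against 75.9% of the other pool 1 cells), in 9 of 11 with Wt1 (81.8%, against 76.5%) and in all 11 with Lrrn4 (against 73.5%). Epcam was in 95.2% of the Msln cells and in all cells with Wt1 or Lrrn4, against 86.2% to 86.8%. The Msln and Wt1 cells of CPCC thus held these genes about as often as the rest of their pool. Over both pools, 1 of the 12 Wt1 cells held Col1a2 and none held Bnc1, which was also in only 0.613% of the other CPCC cells.

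Tbx18 and Aldh1a2 cells of CPCC held Col1a2 more often than the rest within both pools. For Tbx18 it was 3 of 4 cells in pool 1 (75%, against 13.3%) and 7 of 9 in pool 2 (77.8%, against 28.7%), and for Aldh1a2 it was 6 of 12 in pool 1 (50%, against 10.4%) and 3 of 4 in pool 2 (75%, against 31.5%). Pou5f1 was in none of the 4 Tbx18 cells of pool 1 and in 1 of 9 in pool 2, against 81.3% and 36.8%. It was in 7 of 12 Aldh1a2 cells of pool 1 (58.3%, against 80.6%) and in none of 4 in pool 2 (against 35.9%). In pool 1, Epcam was in 3 of 4 Tbx18 cells (75%, against 89.3%) and in 11 of 12 Aldh1a2 cells (91.7%, against 88.1%). In pool 2 it was in 1 of 9 (11.1%, against 46.0%) and 1 of 4 (25%, against 43.5%). The 13 Tbx18 cells had a median of 1987517 counts, against 1400889.5 in the other CPCC cells, and the part of depth in these shares was not tested. In CB, Col1a2 was in 87.5% of Tbx18 cells and in all 26 Aldh1a2 cells.

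Likeness over the 210 CB cells with at least 430000 counts was computed by rank correlation of CPM against 14106 genes. It is a description, since the cells come from 1 sample and from pools that differ in depth. Only Msln had genes at the limit of 0.5 or more. They were Ckmt1 (0.77), Lrrc26 (0.73), Gm15883 (0.71), Mal2 (0.71) and Rab25 (0.70). Within pool 3 the 5 coefficients were 0.76, 0.81, 0.77, 0.79 and 0.74, and within pool 1 they were 0.66, 0.29, 0.32, 0.46 and 0.56. The nearest genes to Tcf21 (Col3a1, 0.48), Aldh1a2 (Loxl1, 0.47) and Tbx18 (Cxcl12, 0.39) stayed under the limit, and Wt1, Lrrn4 and Upk3b were found in too few cells (6, 8 and 11) for it.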

How the data were processed

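Cells of 3 samples were captured one by one on Fluidigm C1 chips and full-length cDNA libraries were sequenced from both ends. Alignment by the authors was to GRCm38 (mm10) with STAR (version 2.7 in the submitters' processing notes) in Partek Flow with Ensembl 97 annotation, and they deposited unscaled estimated counts per gene, with 1 table per sample and 1 column per cell. Values above 0 that were not whole made up 32.0% in mESC, 34.6% in CB and 0% in CPCC, so the CPCC table was rounded or counted differently, which was not stated, nor was the use of strand. Left out of CPCC were 208 rows without a gene and 23 rows turned into dates (0.139% of counts) and 2 empty columns of no sample. Every listed gene reached at least 1 count in a cell, and a gene not listed was not set to 0.

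Each table was assigned to a sample through the culture in its name. With 1 sample per group there is no test and no p-value. The spread between samples of a group could not be measured. Counts were summed per sample and scaled to CPM, and ratios are log2 of (CPM + 1), which understates the change of low genes. Shares carry exact Clopper-Pearson limits at 95%. Values were rounded for thinning and intervals. Motifs were searched on both strands. Gene positions and exon lengths came from GENCODE mouse release 21, 1 Ensembl release before that of the authors. No cell was removed and no doublet caller was run. The genes and the 12 marker lists were chosen with earlier results of these data known, and the level of 10 counts used for genes in the same cell was set after values were seen. Named genes are the 7, list genes on which a result turns, and up to 5 genes per member with a rank correlation of at least 0.5, computed only for members held by at least 20 cells and among genes held by at least 10% of cells. The alternatives tried were TMM factors (edgeR 4.0.16), size factors (DESeq2 1.42.0), equal weight per cell, other pseudocounts, detection at 5 or 10 counts, a filter on cells (100000 counts, 2000 genes and under 30% mitochondrial counts), thinning and leaving out pools or the leading cell. Scripts ran in Python 3.11.15 with scipy 1.17.1 and were tested on simulated data.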

Additional observations from a re-analysis of the deposited data

How the results depend on the processing

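No ratio of 2-fold or more changed direction under any alternative run. The median log2 ratio of CPCC against mESC, 1.37, was 1.51 when cells were weighted equally, 2.13 and 0.26 with pseudocounts of 0.1 and 10 CPM, 0.92 without the cell with most counts of the genes in each sample, and between 0.21 and 1.40 when 1 pool was left out. For CB against mESC, 3.0, it was 2.84 with TMM factors, 2.78 with DESeq2 size factors, 3.09 and 1.64 with the 2 pseudocounts, 3.06 without the leading cells, and 2.01 to 3.71 without 1 pool. For CB against CPCC, 2.11, it was 1.94, 1.93, 1.93 with equal weight per cell, 2.26 and 1.17 with the 2 pseudocounts, 2.66 without the leading cells, and 0.87 to 3.44 without 1 pool. The larger pseudocount exceeds nearly all levels in mESC and CPCC, which draws the ratios towards 0, and under it Wt1 in CB against mESC and all 4 genes called between CPCC and mESC lay within 2-fold. The TMM and DESeq2 factors alone amount to -0.17 and -0.23 in CB against mESC and to -0.19 and -0.20 in CB against CPCC on the log2 scale, and low genes move by less because of the pseudocount. The number of CB cells with 3 or more genes, 15, was 8 and 7 at 5 and 10 counts, 12 after thinning, 15 with the cell filter and 7 to 14 without 1 pool. The share of Upk3b cells with Msln, 54.5%, lay between 25% and 71.4% without 1 pool and between 54.5% and 66.7% under the other settings. No paired analysis was possible because each group is 1 sample. The limits are the single sample per group, the few cells behind Wt1, Lrrn4 and Upk3b, and the pools, whose identity is not given.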
